A study of Mus musculus with 135 samples.

Results

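The 7 mammalian sirtuin genes, *Sirt1* to *Sirt7*, were examined in single haematopoietic stem cells (HSCs) of young and old mice. The members were chosen by name, and all 7 listed genes were among the 15181 genes of the read count table. The cells were live bone marrow HSCs, sorted as Lin-Sca-1+c-Kit+CD150+CD48- from C57BL/6 mice that carry a *Vwf*-eGFP reporter, a fluorescent marker of von Willebrand factor expression. The young group was aged 2 to 3 months (61 cells) and the old group 20 to 25 months (74 cells), no treatment was named for either group, and every cell of both groups came from a reporter animal. Of these, 52 young and 62 old cells passed the study's limits on mapped reads, mitochondrial reads and detected genes, and they are described unless all 61 and 74 cells are named. No label ties the cells of an age to more than 1 animal, so each age counted as 1 sample, no test between ages was possible, and standard deviations (SD) below describe the spread over cells.

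Sirtuins are NAD+-dependent enzymes that remove acetyl and other acyl groups from lysines. SIRT1, SIRT6 and SIRT7 act mainly in the nucleus, SIRT2 mainly in the cytoplasm, and SIRT3, SIRT4 and SIRT5 in mitochondria. Because they use NAD+ as a co-substrate, their activity is tied to the metabolic state of the cell, and several members have been studied as regulators of HSC stress resistance and ageing. Detection of a low-level transcript in a single cell depends on the capture and amplification of few molecules.

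The genes lie on 5 chromosomes of GRCm38. In RefSeq, *Sirt1* lies at chr10:63319005-63339035 on the minus strand, *Sirt6* at chr10:81621787-81627792 on the minus strand and *Sirt7* at chr11:120618371-120625014 on the minus strand. *Sirt2* lies at chr7:28766752-28788665 on the plus strand and *Sirt3* at chr7:140863663-140882309 on the minus strand. *Sirt4* lies at chr5:115478006-115490264 on the minus strand and *Sirt5* at chr13:43365389-43395203 on the plus strand. RefSeq gave 9 promoter windows of 300 bases for the 7 genes, each from 250 bases before to 50 bases after a transcript start. Not every such start is the outer end of the gene. The *Sirt4* window, chr5:115484248-115484547, lies inside the gene interval above. The *Sirt5* window, chr13:43365285-43365584, is set on a start inside its interval, so the *Sirt5* stretch below also ends inside the gene. These windows held 15 to 47 CpG dinucleotides, against a median of 7 over 32851 mouse windows of the same length. A GC box (GGGCGG, searched on both strands, like every motif here) was present in 6 of the 9 windows and in 35.7% of all windows. A CCAAT box (CCAAT) was present in 3 of the 9 and in 37.4% of all windows, and a TATA box (TATAAA) in none of the 9 and in 13.6% of all windows. The *Sirt1* window held 2 matches to the E-box CACGTG, which 7.15% of all windows held. The following stretches are shown because *Sirt1* had the most CpG dinucleotides and *Sirt5*, the member expressed in the fewest cells, was at the lower end of the range. Both are RefSeq sequence of GRCm38.p6, read 5′ to 3′ on the strand of the gene, with GC, CCAAT and E-box letters in capitals. A match is a string of letters and not evidence of a bound factor.
*Sirt1*, chr10:63339051-63339185, minus strand: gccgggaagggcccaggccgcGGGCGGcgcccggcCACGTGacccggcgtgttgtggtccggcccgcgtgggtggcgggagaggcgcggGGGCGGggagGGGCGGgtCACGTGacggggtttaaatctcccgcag
*Sirt5*, chr13:43365345-43365484, plus strand: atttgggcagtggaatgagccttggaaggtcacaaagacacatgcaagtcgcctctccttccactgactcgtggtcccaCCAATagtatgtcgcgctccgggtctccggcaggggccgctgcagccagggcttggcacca
The *Sirt1* stretch held 20 CpG dinucleotides, and the *Sirt5* stretch, of similar length, held 7. Each stretch is a part of its window, and the whole windows held 47 and 15. The *Sirt5* window also held 1 GC box that is not in the printed stretch, and the *Sirt1* window held 7 GC boxes, of which the stretch shows 3.

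Some exons are shared with neighbours. In the GENCODE annotation, *Sirt3* exons share 342 bases with *Psmd13* and 418 with *Ric8a* on the opposite strand, *Sirt2* exons share 42 bases with *Nfkbib* on the opposite strand, and *Sirt7* exons share 124 bases with *Mafg* on the same strand. *Sirt1* exons share 65 bases with the antisense gene *Gm16145* on the opposite strand. *Sirt4*, *Sirt5* and *Sirt6* exons overlapped no other annotated exon. The counting was not stated to use strand, so reads from shared bases cannot be assigned to one gene. Of the 39 old cells that expressed *Sirt3*, 31 did not express *Psmd13*, which encodes a proteasome subunit, and of the 29 young cells 19 did not. *Ric8a*, with the longer overlap, was not among the counted genes, so the same comparison could not be made for it. Likewise 9 of 11 young and 11 of 13 old *Sirt2*-expressing cells did not express *Nfkbib*, and 6 of 8 young and 10 of 16 old *Sirt7*-expressing cells did not express *Mafg*.

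Total counts ranged from 273236 to 5688706 reads per young cell (median 2798990) and from 276316 to 4086659 reads per old cell (median 2116024). All 10 HSC marker genes were measured, and *Meis1* alone was expressed in every cell. The others ran from *Fgd5*, in 6 young and 14 old cells, to *Kit*, in 49 and 61. *Slamf1*, the gene of the sort marker CD150, was expressed in 9 young and 15 old cells. *Cd48*, which the sort selected against, was expressed in 1 young and 0 old cells. With *Slamf1* detected this seldom, the low count of *Cd48* is no check on the sort. The ages also differed in other ways. Of the young cells 50 expressed *Xist* and 2 expressed any of 4 Y-linked genes, and of the old cells 8 and 58 did, so age and sex cannot be told apart in any difference below. The same position codes occur at both ages, and the labels do not say whether they stand for capture sites or library plates. No label names a batch, and any batch of capture or library preparation that went with age cannot be told apart from it. At least 1 of the cell cycle genes *Ccna2*, *Ccnb1*, *Cdk1* and *Cdc25c* was expressed in 27 young and 13 old cells. At least 1 of the 3 dendritic cell genes measured (of 4 listed), *Cd74*, *H2-Aa* and *Siglech*, was expressed in 13 young and 47 old cells. *Cd74* was expressed in 6 young and 37 old cells and *H2-Aa* in 8 and 38. *Siglech* was expressed in only 2 and 5, with a mean log2(CPM + 1) of 0.67 in young and 0.57 in old cells. The summed level of the 3 genes ran from 0 to 483 CPM (reads of a gene scaled to a common total per cell) with a median of 0.887 in young cells. In old cells it ran from 0 to 4581 CPM with a median of 191, and its part in the sirtuin values was not tested. Any of 5 measured megakaryocyte and platelet genes (of 6 listed) was expressed in 21 young and 37 old cells, with a summed level of 0 to 1116 CPM (median 1.07) and 0 to 2891 CPM (median 18.01). Any of 6 granulocyte and macrophage genes (of 8) was expressed in 44 young and 46 old cells, mostly *Lyz2* in 43 and 43, while *Mpo* was in 2 and 1. Any of 3 T cell genes (of 5) was expressed in 19 cells of each age, the only B cell gene measured, *Cd79b*, in 12 and 16, and *Klf1* or *Epor*, the erythroid genes with counts, in 6 and 1, with the globin gene *Hba-a1* at 0. The part of these genes in the sirtuin values was likewise not tested.

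Levels below are log2(CPM + 1), averaged over young or over old cells, and a cell was counted as expressing a gene where this value was above 2. By level, 6 of the 7 sirtuins were higher in old than in young HSCs and *Sirt6* was lower. The median difference over the 7 genes was 0.39 on the log2(CPM + 1) scale, beside a median of -0.02 over the 15014 genes with counts, of which 46.2% were higher in old cells. None of the 7 differed by at least 1, a size reached by 3.91% of all genes with the higher level in old cells and by 4.49% with the lower, 8.4% in either direction. *Sirt4*, *Sirt1* and *Sirt3* had the widest positive differences, at ranks 708, 865 and 912 of all genes, and the 95th percentile of all genes was 0.88. The intervals of the expressing shares overlapped between ages for all 7 genes. This overlap was not counted over all genes, so nothing particular to the sirtuins is read from it. *Sirt3* and *Sirt6* were expressed in the most cells, 68 and 53 of the young and old cells together, and *Sirt5* in the fewest, 12. The plot of levels in single cells shows that most cells held no read of *Sirt1*, *Sirt2*, *Sirt4*, *Sirt5* or *Sirt7*, with a minority of cells at high levels.

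**Figure D1:**
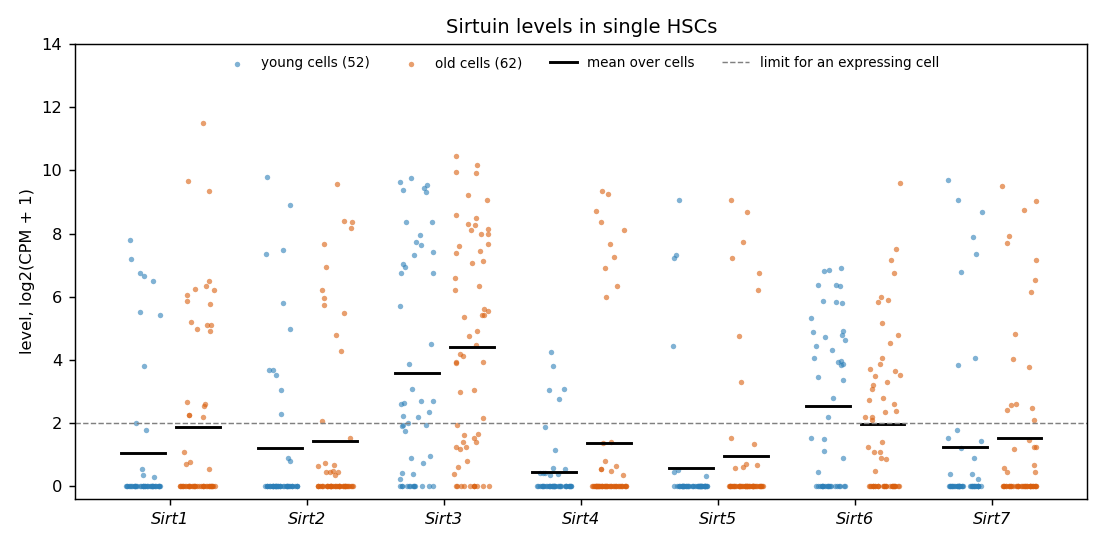
Level of each sirtuin, log2(CPM + 1), in each of 52 young and 62 old HSCs, with 1 point per cell, black lines for the mean over cells and a dashed line at the limit of 2 above which a cell was counted as expressing. Most points of *Sirt1*, *Sirt2*, *Sirt4*, *Sirt5* and *Sirt7* lie at 0, and the points of *Sirt3* spread up to 10.46.

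*Sirt1*, which encodes a nuclear deacetylase of histones, p53 and FOXO factors, showed the widest difference in expressing share at the limit of 2 as counted, 18.5 percentage points. After thinning that of *Sirt6* was wider, at -13.2 points against 11.4 for *Sirt1*, and at a limit of 4 those of *Sirt6* (-16.9), *Sirt3* (16.7) and *Sirt4* (14.2) were wider than that of *Sirt1* (10.7). The level of *Sirt1* in young cells had a lowest and median value of 0 and a highest value of 7.81, and in old cells a lowest and median value of 0 and a highest value of 11.49. *Sirt1* was expressed in 8 of 52 young cells (15.4%, 95% exact interval 6.88 to 28.1%) and in 21 of 62 old cells (33.9%, 22.3 to 47.01%). The mean level was 1.05 ± 2.30 (SD, n = 52 cells) and 1.88 ± 2.93 (SD, n = 62 cells), a difference of 0.83. After each cell was thinned to 250000 reads the count was 10 young and 19 old cells. At that total 1 read of a gene passes the limit of 2, whereas most cells as counted needed more. Thinning thus changed the call as well as the depth. Within expressing cells the level of *Sirt1* was 6.20 ± 1.25 in young and 5.39 ± 2.54 in old cells, so the higher mean level in old cells went with more expressing cells and not with a higher mean level in them. Summed counts were 2061 young and 12092 old reads, but 1 old cell held 8996 of the latter (74.4%), and the log2 ratio of summed CPM was 2.76 with that cell, 0.83 without it and 1.36 without the cell of each age with most reads. Among cells that expressed none of the 4 cell cycle genes, *Sirt1* was expressed in 2 of 25 young cells (8%, 0.984 to 26.03%) and 18 of 49 old cells (36.7%, 23.4 to 51.7%), with a difference in mean level of 1.36.

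*Sirt6*, which encodes a nuclear deacylase that acts at telomeres, in DNA repair and on glycolytic genes, was the only member with a lower mean level in old cells. The lowest, median and highest levels of *Sirt6* were 0, 1.85 and 6.92 in young cells and 0, 0.98 and 9.61 in old cells. *Sirt6* was expressed in 26 of 52 young cells (50%, 35.8 to 64.2%) and 27 of 62 old cells (43.5%, 30.99 to 56.7%), and after thinning in 27 and 24 cells. The mean level was 2.54 ± 2.55 in young and 1.96 ± 2.40 in old cells, a difference of -0.58. As for every other member, the difference was smaller than the SD over cells at each age, which is not an error of the difference. The direction depended on which cells and which summary were taken. In the cells without cell cycle genes 8 of 25 young cells (32%) expressed *Sirt6* and 20 of 49 old cells did (40.8%), with mean levels of 1.73 and 1.80. The log2 ratio of summed CPM was 0.26, but 1 old cell held 1240 of the 3004 old reads, and the ratio was -0.49 without it and -0.26 without the cell of each age with most reads. No order of the ages was read for *Sirt6*.

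*Sirt7*, which encodes a nucleolar deacylase linked to ribosomal DNA transcription and to mitochondrial stress responses, was expressed in 8 of 52 young cells (15.4%, 6.88 to 28.1%) and 16 of 62 old cells (25.8%, 15.5 to 38.5%). The lowest and median level of *Sirt7* was 0 at both ages and the highest was 9.70 in young and 9.52 in old cells. The mean level was 1.26 ± 2.71 in young and 1.53 ± 2.71 in old cells, a difference of 0.27. More old cells expressed *Sirt7*, but the young expressing cells had the higher level, at 7.18 ± 2.20 against 5.47 ± 2.67. Summed counts were higher in young cells, with 8323 reads against 4412 in old cells and a log2 ratio of -0.71. One young cell held 3362 of the young and 1 old cell 2137 of the old reads, and the ratio was 0.00 without the young, -1.63 without the old and -0.92 without both cells. After thinning *Sirt7* was expressed in 12 young cells (23.1%) and 16 old cells (25.8%), a difference of 2.73 percentage points where 10.4 stood before. The thinned call asks for only 1 read, so these shares differ in the call as well as in depth.

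*Sirt2*, which encodes the mainly cytoplasmic member that deacetylates tubulin and NLRP3, was expressed at nearly the same frequency at both ages. It was found in 11 of 52 young cells (21.2%, 11.1 to 34.7%) and 13 of 62 old cells (20.97%, 11.7 to 33.2%). The lowest and median level of *Sirt2* was 0 at both ages and the highest was 9.78 in young and 9.58 in old cells. Its mean level was 1.20 ± 2.52 in young and 1.44 ± 2.76 in old cells, a difference of 0.25. After thinning *Sirt2* was expressed in 10 young and 14 old cells, and at least 1 read of it was counted in 13 young (25%) and 22 old cells (35.5%). Within expressing cells its level was 5.50 ± 2.54 and 6.43 ± 2.06. The summed counts were 4368 young and 5372 old reads, of which 1 young cell held 2423 and 1 old cell 1411 reads. Their log2 ratio was 0.51, and it was 1.65 without the young, 0.09 without the old and 1.23 without both cells.

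**Figure D2:**
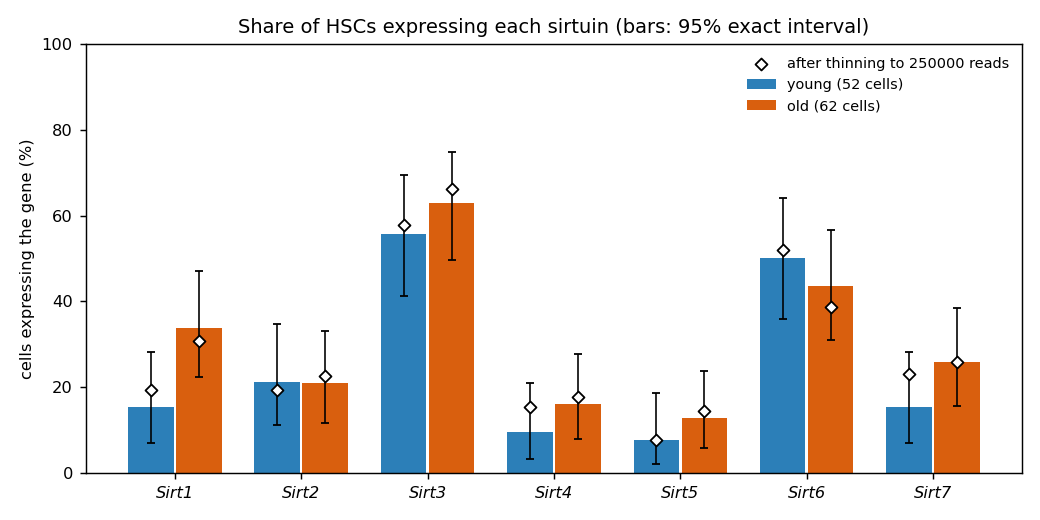
Share of cells (%) expressing each sirtuin, log2(CPM + 1) above 2, in 52 young and 62 old HSCs, with 95% exact Clopper-Pearson intervals as error bars and diamonds for the share after thinning every cell to 250000 reads. *Sirt1* has the widest gap between bars, 15.4% against 33.9%, and *Sirt6* the widest between diamonds, 51.9% against 38.7%. The intervals of the ages overlap for every sirtuin, and overlap was not counted over all genes.

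*Sirt3* encodes the main mitochondrial deacetylase, whose substrates include the superoxide dismutase SOD2 and the isocitrate dehydrogenase IDH2. It had the highest level of the family at both ages, a level that may include reads from the exon bases shared with *Psmd13* and *Ric8a*. The lowest, median and highest levels of *Sirt3* were 0, 2.28 and 9.75 in young cells and 0, 4.33 and 10.46 in old cells. *Sirt3* was expressed in 29 of 52 young cells (55.8%, 41.3 to 69.5%) and 39 of 62 old cells (62.9%, 49.7 to 74.8%), and after thinning in 30 and 41 cells. The mean level was 3.597 ± 3.514 and 4.401 ± 3.412, a difference of 0.80. The cells with most reads held 15.3% of 17269 young and 20.5% of 21839 old reads. The log2 ratio of summed CPM was 0.55, and it was 0.75 without the young, 0.26 without the old and 0.46 without both of these cells. Over all 61 young and 74 old cells this ratio was -0.49, with 15208 reads of *Sirt3* in 1 young cell outside the limits.

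*Sirt4*, which encodes a mitochondrial lipoamidase and ADP-ribosyltransferase that acts on pyruvate and glutamate metabolism, was expressed in few cells at each age. *Sirt4* was expressed in 5 of 52 young cells (9.62%, 3.20 to 21.03%) and 10 of 62 old cells (16.1%, 8.02 to 27.7%), and after thinning in 8 and 11 cells. In the 5 young cells its level ranged from 2.76 to 4.25 and in the 10 old cells from 5.99 to 9.33. A further 9 young and 8 old cells held reads of *Sirt4* without passing the limit of 2. How often so few expressing cells have ranges that do not overlap was not counted over all genes. Nothing particular to *Sirt4* is read from these ranges. The mean level over all cells was 0.44 ± 1.04 in young and 1.36 ± 2.90 in old cells, a difference of 0.91, with a median of 0 at both ages. Summed counts were 145 reads (95% exact Poisson interval 122 to 171) in young and 5980 reads (5829 to 6134) in old cells, a log2 ratio of 5.58. The old reads were spread, with 29.4% in the cell that held the most. One young cell outside the limits held 1932 reads at a level of 9.12, and with all 61 young and 74 old cells the log2 ratio was 1.54 and the difference in mean level 0.58.

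*Sirt5*, which encodes a mitochondrial desuccinylase and demalonylase, was the least frequent member. It was expressed in 4 of 52 young cells (7.69%, 2.14 to 18.5%) and 8 of 62 old cells (12.9%, 5.74 to 23.9%), and after thinning in 4 and 9 cells. The lowest and median level of *Sirt5* was 0 at both ages and the highest was 9.07 at both. The mean level was 0.57 ± 1.94 in young and 0.95 ± 2.35 in old cells, a difference of 0.39. In cells without cell cycle genes this difference was -0.09. Of 2535 young reads 1 cell held 1735, and of 3659 old reads 1 cell held 1292. The log2 ratio of summed CPM was 0.74, and it was 2.37 without the young, 0.14 without the old and 1.77 without both cells.

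Levels of different genes were compared per kilobase of the longest coding transcript in GENCODE. On the scale log2(CPM per kilobase + 1), the order of mean levels in old cells was *Sirt3* (3.92 ± 3.19), *Sirt6* (1.57 ± 2.06), *Sirt7* (1.31 ± 2.43), *Sirt1* (1.20 ± 2.12), *Sirt4* (1.19 ± 2.60), *Sirt2* (1.18 ± 2.36) and *Sirt5* (0.75 ± 1.95). In young cells the order was *Sirt3* (3.19 ± 3.27), *Sirt6* (2.07 ± 2.16), *Sirt7* (1.09 ± 2.44), *Sirt2* (0.97 ± 2.15), *Sirt1* (0.67 ± 1.56), *Sirt5* (0.46 ± 1.62) and *Sirt4* (0.33 ± 0.81). *Sirt3*, *Sirt6* and *Sirt7* led at both ages in this order of log means. Levels of *Sirt1*, *Sirt2*, *Sirt3* and *Sirt7* may include reads from the exon bases they share with neighbours. By mean CPM per kilobase *Sirt3* also led, at 79.4 in young and 97.6 in old cells, but *Sirt6* stood at 10.96 and 13.7, below *Sirt7* (25.9 and 23.6) and *Sirt2* (16.6 and 17.8) at both ages and below *Sirt4* (26.1) and *Sirt1* (18.3) in old cells. The gap from *Sirt3* to *Sirt6* was 2.35 in old and 1.11 in young cells, below the SD of *Sirt3* at both ages and above that of *Sirt6* in old cells, and every other gap between neighbours was smaller than the SD of both genes.

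Single cells rarely expressed many sirtuins. Young cells expressed 1.75 ± 1.05 and old cells 2.16 ± 1.19 of the 7 genes (SD over cells), with a median of 2 at both ages and no cell above 5. At least 3 were expressed in 11 of 52 young cells (21.2%, 11.1 to 34.7%) and 20 of 62 old cells (32.3%, 20.9 to 45.3%), and none in 5 young and 3 old cells. After thinning, where 1 read passes the limit, the means were 1.94 and 2.16 and the difference of 0.41 became 0.22. The number of sirtuins in a cell had a Pearson r of 0.45 in young and 0.39 in old cells with the number of genes expressed in it, and of -0.21 at both ages with the log of its total count. Both measures of a correlation come from the same cell and share its depth and capture.

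**Figure D3:**
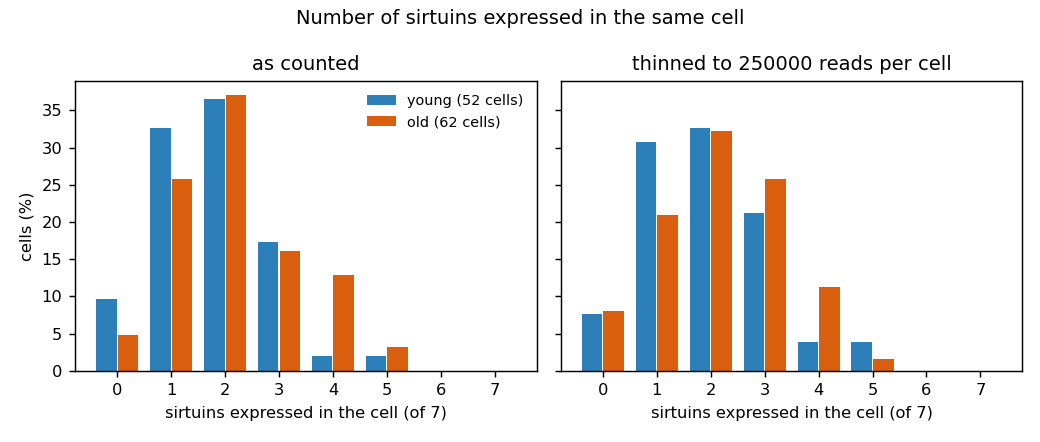
Number of the 7 sirtuins expressed in the same cell (x axis) against the share of cells (%) in 52 young and 62 old HSCs, as counted on the left and after thinning every cell to 250000 reads on the right. Most cells of both ages express 1 to 3 sirtuins and none expresses more than 5.

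The levels of different members were weakly related across cells. Over the 21 pairs of genes, Pearson r of the levels ran from -0.16 to 0.34 in young cells, with 9 pairs above 0, and from -0.23 to 0.38 in old cells, with 8 pairs above 0. *Sirt3* and *Sirt6*, the most frequent members, were expressed together in 34 cells, where the product of their shares within each age gave 31.5. *Sirt1* and *Sirt6* were together in 16 cells against a product of 13.1, and *Sirt2* and *Sirt6* in 8 against 11.2. *Sirt2* and *Sirt7* were together in 0 young cells and 7 old cells, against products of 1.69 and 3.35. *Sirt1* and *Sirt2* had the highest r in old cells, 0.38, and an r of 0.00 in young cells. Counts this sparse give no finding on co-expression.

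The genes around the sirtuins were taken as 8 lists of known partners, substrates and competitors for NAD+, and the plot of differences by list sets them beside the members. Of 113 genes measured on these lists, 14 were at least 1 higher and 9 at least 1 lower in old cells. Among genes expressed in at least 10% of cells, 14.6% of the 96 listed genes were at least 1 higher and 9.38% at least 1 lower, beside 6.24% and 6.98% of all 9374 genes expressed in as many cells. These genes were taken for their link to the family, and nothing particular to the lists is read from these shares.

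**Figure D4:**
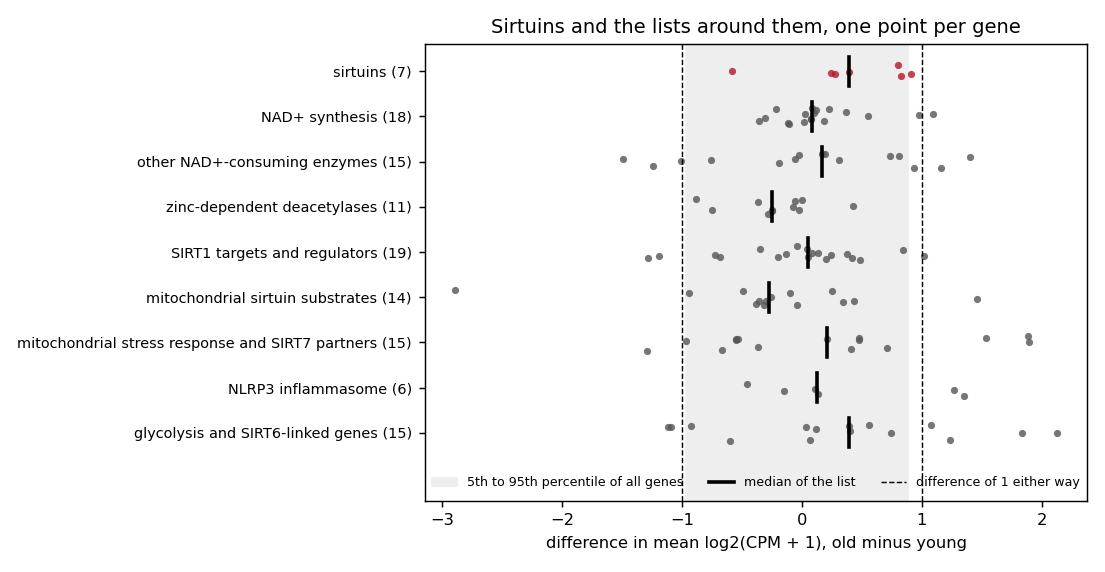
Old minus young difference of mean level, on the log2(CPM + 1) scale, for the 7 sirtuins and for the genes of 8 lists, with 1 point per gene, black bars for list medians, a grey band from the 5th to the 95th percentile of all genes (-0.97 to 0.88) and dashed lines at a difference of 1 either way. No sirtuin passes a dashed line, and *Idh2* lies farthest from 0, at -2.90.

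NAD+ supply is what all 7 enzymes share. Of 18 NAD+ synthesis genes measured, 1 was at least 1 higher in old cells and none at least 1 lower, with a median difference of 0.08. The gene past this limit was *Nampt*, which encodes the rate-limiting enzyme of NAD+ salvage, at 1.13 ± 2.09 in young and 2.22 ± 3.20 in old cells. *Naprt*, which starts NAD+ synthesis from nicotinic acid, was at 0.86 and 1.84, *Nmnat3* at 1.45 and 1.14, and the mitochondrial NAD+ carrier gene *Slc25a51* at 6.49 and 6.37. Of 15 genes for other NAD+-consuming enzymes, 2 were at least 1 higher and 3 at least 1 lower, with a median of 0.17. *Cd38*, which encodes the main NAD+ glycohydrolase of blood cells, was at 3.56 ± 1.65 in young and 4.96 ± 2.84 in old cells, and *Parp10* at 0.30 and 1.46. The poly-ADP-ribose polymerase genes *Parp2* and *Parp3* were lower, at 4.28 and 2.79 and at 1.81 and 0.57, and so was *Parp6* at 1.92 and 0.91, which is named after its values were seen. None of the 11 zinc-dependent deacetylase genes, the other family of lysine deacetylases, differed by at least 1. Their median was -0.25 where that of the sirtuins was 0.39. Of the 11, 9 had the lower level in old cells, beside 8071 of all 15014 genes with counts. With so few genes, no contrast between the 2 families is read from these values. *Hdac9* was at 1.14 and 0.26 and *Hdac3* at 1.71 and 0.96, while *Hdac1* was at 4.19 at both ages and *Hdac7* at 1.69 and 1.67.

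Among 19 genes for SIRT1 targets and regulators, 1 was at least 1 higher and 2 at least 1 lower, with a median of 0.05. *Rela*, an NF-kB subunit gene, was at 2.35 and 3.37, and *Ppargc1b*, a coactivator of mitochondrial biogenesis, at 0.19 and 1.04. *Trp53* was at 7.52 and 6.24, and *Xrcc6*, which encodes the DNA repair protein Ku70, at 3.04 and 1.85. Of 15 glycolysis and SIRT6-linked genes, 4 were at least 1 higher and 2 at least 1 lower, with a median of 0.39. *Ldha*, which encodes lactate dehydrogenase A, was at 7.20 ± 3.00 in young and 9.33 ± 2.25 in old cells and *Hk2*, a hexokinase gene, at 2.47 ± 3.48 and 4.304 ± 4.197. *Hif1a* at 1.32 and 2.40 and *Ldhb* at 3.92 and 5.15 were the other 2 higher genes, named after their values were seen. *Pdk1* was at 3.53 and 2.41 and *Pfkm* at 1.80 and 0.71. Of 8 listed NLRP3 inflammasome genes, a set linked to SIRT2, 6 were measured, and *Nlrp3* itself and *Il1b* were not among the counted genes. The median difference of the 6 was 0.12, with 2 at least 1 higher and 0 at least 1 lower. *Pycard* was at 3.09 and 4.45 and *Txnip* at 7.66 and 8.93, both at least 1 higher, while *Il18* was at 0.89 and 0.74 and *Nek7* at 5.84 and 5.38.

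Among 14 genes for mitochondrial sirtuin substrates the median was -0.28, with 1 at least 1 higher and 1 at least 1 lower. *Idh2*, a SIRT3 substrate that makes mitochondrial NADPH, was at 5.12 ± 3.39 in young and 2.22 ± 3.09 in old cells and was expressed in 38 of 52 and 21 of 62 cells, a difference of -2.90. *Sod2* was at 6.50 ± 2.29 and 5.56 ± 2.15 and was expressed in every cell of both ages. *Acadl*, which encodes a long-chain acyl-CoA dehydrogenase, was at 3.57 and 5.02, and *Pdha1* at 2.42 and 2.86. Of the 14 genes, 4 had the higher and 10 the lower level in old cells, where *Sirt3* itself was 0.80 higher. These are RNA levels, and a link between *Sirt3* and the genes of its substrates was not tested. Of 15 genes for the mitochondrial stress response and SIRT7 partners, 3 were at least 1 higher and 1 at least 1 lower, with a median of 0.21. *Atf4*, a stress-response transcription factor gene, was at 4.06 and 5.96, *Elk4* at 1.68 and 3.56, and *Hspd1*, named after its values were seen, at 4.83 and 6.36. *Gabpb1* was at 3.28 and 1.99 and *Hspe1* at 4.97 and 4.01.

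The differences of the members were recomputed under 10 other settings, as the plot of differences by setting shows. *Sirt1* and *Sirt4* stayed above 0 in all 10 and were at or above 1 in the same 5 of them. More of all genes were also at least 1 higher in such settings than the 587 of 15014 as reported. They were 1122 of 14486 in cells without cell cycle genes, 1232 of 15014 with a pseudocount of 0.1 CPM and 3543 of 14455 with summed counts. The remaining settings of the 5 were also log2 ratios of summed counts, and no count over all genes was made for them. *Sirt2* stayed above 0 in all 10, *Sirt3* and *Sirt5* in all but 1 each, and *Sirt6* and *Sirt7* changed sign in 3 each.

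**Figure D5:**
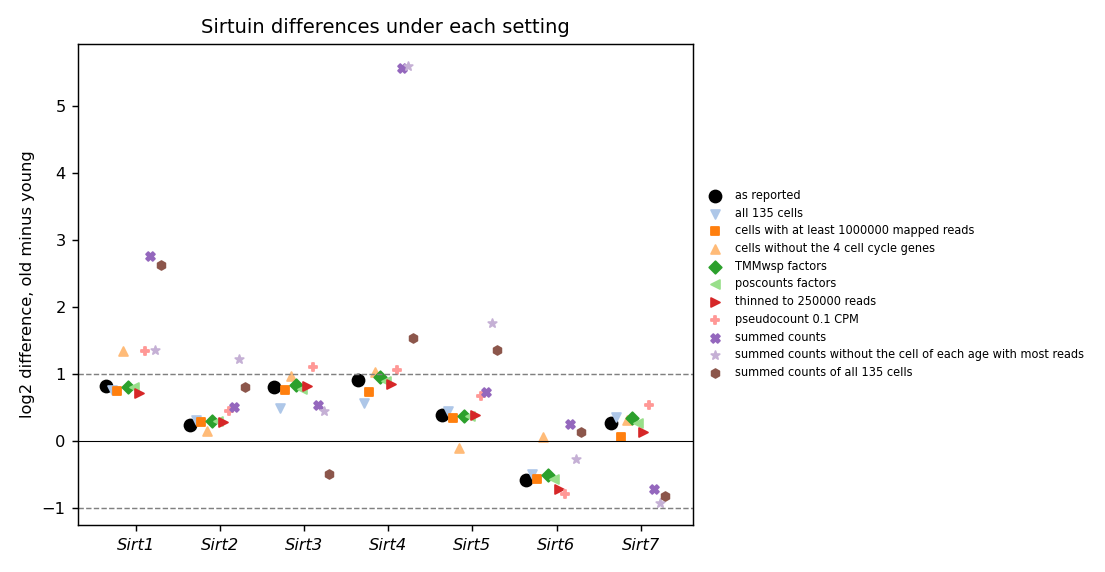
Difference of each sirtuin between ages (log2 scale, old minus young) as reported (black circles) and under 10 other settings, with dashed lines at a difference of 1 either way. *Sirt4* lies between 0.58 and 5.61 and *Sirt1* between 0.73 and 2.76, whereas *Sirt6* and *Sirt7* fall on both sides of 0.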

How the data were processed

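The authors mapped 51 bp reads of single cells to mm10 with Tophat (2.0.10 in the submitters' processing notes), kept 1 alignment per read, and deposited raw counts per RefSeq gene from rpkmforgenes. Strand use and molecular identifiers are not given in the sources used here. Cells needed at least 500000 mapped reads, at most 10% mitochondrial reads and at least 3000 genes with an RPKM of 1 or higher, read from the study's mapping table. CPM used the total of each cell, levels as mean log2(CPM + 1), which understates changes of low genes. Thinning drew 250000 reads per cell and left out no cell. In a thinned cell 1 read passes the limit of 2, so thinned shares use a looser call than most cells as counted. Intervals (95%, Clopper-Pearson for shares, exact Poisson for sums) cover counting error only. Alternatives used TMMwsp factors (edgeR 4.0.16) and poscounts factors (DESeq2 1.42.0), other cells, pseudocounts, limits and summed counts. Calculations were checked on simulated counts. Python 3.11.15, pandas 2.3.3, scipy 1.17.1 and R 4.3.3 were used. Doublets were not called, as each capture site was imaged. Groups came from the labels. The members and lists were chosen with earlier results of these data known. All 7 members were named, with, from each list, the 2 genes highest and the 2 lowest in difference among those expressed in at least 10% of cells, and the 2 genes most correlated with each member expressed in at least 20%. Positions and promoters are RefSeq (GRCm38.p6), exon overlaps GENCODE (GRCm38), the assembly that mm10 names. All 7 members matched. Listed genes outside the table were not analysed here.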

Additional observations from a re-analysis of the deposited data

Results flagged for a closer look

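Of the 21 cells outside the study's limits, 9 expressed *Sirt3* (42.9%, 95% exact interval 21.8 to 65.98%), beside 55.8% of young and 62.9% of old cells within the limits. It is listed because these cells were outside the comparisons above and the share was above the 14.3% that a count of 0 allows, which a gene expressed in most cells would pass. The highest was a young cell with 15208 reads of *Sirt3* and a level of 11.64, above that of every cell within the limits. Of the other 6 members, each was expressed in 1 to 3 of these cells.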

How the results depend on the processing

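Each age was 1 sample, so no replicate could be left out. No paired analysis was possible because the cells of the 2 ages share no animal, and the labels give no replicate numbers. For the 7 level differences, 54 of 70 values kept their sign and moved by less than 1.5-fold, and for the 7 share differences 54 of 63 kept their sign. With the 25 young and 49 old cells that expressed no cell cycle gene, 1122 genes were at least 1 higher in old cells where 587 were before, the level differences of *Sirt5* and *Sirt6* were -0.092 and 0.071, and their share differences were -1.80 and 8.82 percentage points. With a pseudocount of 0.1 CPM, 1232 genes were at least 1 higher, 1632 at least 1 lower (674 before) and 35 listed pathway genes passed either limit (23 before). With summed counts these numbers were 3543, 3399 and 48, and the differences of *Sirt6* and *Sirt7* were 0.26 and -0.71. The 2 added settings on summed counts were chosen after seeing the data. Without the cell of each age with most reads of the gene, the median sirtuin difference was 1.23 (0.39 before) and that of *Sirt7* was -0.92, and over all 61 young and 74 old cells *Sirt3*, *Sirt6* and *Sirt7* were at -0.49, 0.14 and -0.82. The share difference of *Sirt2*, -0.19 percentage points, was 0.60 with all 61 young and 74 old cells, 1.05 with cells of at least 1000000 mapped reads, 1.74 with TMMwsp factors, 3.35 after thinning, and 10.5, 1.43 and 7.82 with an expressing cell defined by at least 1 read, a level above 1 and a level above 4. The difference in sirtuins per cell, 0.41, was 0.22 after thinning. The cause was not tested for any of these. The filter on low genes moved the background, to 6.24% higher and 6.98% lower. At this depth the share intervals of the ages overlapped for all 7 members, an overlap that was not counted over all genes.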

Other observations

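The genes whose levels followed those of a sirtuin most closely over the young and old cells together were weakly related to it. Of 6939 genes expressed in at least 20% of cells, *Eif1ad* (Pearson r 0.40) and *Ankrd26* (0.39) were closest to *Sirt2*, and *Fkbp2* (0.37) and *Tubgcp4* (0.36) to *Sirt1*. The r of *Fkbp2* with *Sirt1* was 0.09 within young and 0.57 within old cells, and that of *Tubgcp4* was 0.50 and 0.26. *Psmb9* (0.33), an immunoproteasome gene, and *Tubgcp3* (0.31) were closest to *Sirt3*, with an r of *Psmb9* of 0.30 within young and 0.38 within old cells. *Zfp825* (0.37) and *Cxxc1* (0.36) were closest to *Sirt6* and *Tmem147* (0.31) and *Cox20* (0.31) to *Sirt7*. Both levels of a pair come from the same cell and share its depth, the highest of all 6939 values were taken, and no p is given.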
